A study of Drosophila sechellia and Drosophila melanogaster and Drosophila simulans with 18 samples.

Results

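The insulin-like peptides (Ilps) and the genes that carry their signal form a group of 10 genes, namely *Ilp2*, *Ilp3*, *Ilp5*, *Ilp6*, *Ilp8*, *InR*, *chico*, *foxo*, *Thor* and *ImpL2*. They were taken by symbol, with the species prefix removed, from the gene tables of 3 *Drosophila* species. All 10 were found among the 17649 genes listed for *D. melanogaster*. The table of *D. simulans* (15372 genes) names 2 of them, *Thor* and *ImpL2*, and that of *D. sechellia* (17273 genes) names 0, because most genes of these species are listed by a GD or GM number. The insulin response of *D. sechellia*, the fruit specialist, is therefore not described here.

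The study asked how whole adult females respond to hexanoic acid (HA), a medium-chain fatty acid of the host fruit of *D. sechellia*. Young females of *D. melanogaster* (strain 14021-0231.36), *D. simulans* (14021-0251.195) and *D. sechellia* (14021-0428.25), raised on cornmeal at 20 °C with 16 h of light and 8 h of dark, were kept for 24 h on instant food that was either plain (control) or held 0.23% HA. Each of the 6 groups had 3 libraries, made from pools of whole flies and sequenced after poly-A selection. Each species is represented by 1 strain, and the reads of *D. sechellia* were longer than those of the other species. The tables give 1 FPKM value (fragments scaled to transcript length and library size) for each gene and diet, pooled over the 3 libraries. There is therefore no value per library, no SD and no test of the diet, and the depth behind each value is not in the tables. Changes are given as log2 ratios of HA over control after 0.1 FPKM was added to both values, and a gene was counted as past the limit when it differed by at least 1.5-fold, a log2 ratio of 0.58, at a mean of both diets of at least 1 FPKM.

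Insulin signalling couples feeding to growth, metabolism and egg production. In the fly, peptides released by neurosecretory cells of the brain and by the fat body bind a receptor tyrosine kinase, whose adaptor and kinases lead to the nuclear exclusion of the transcription factor FOXO and to the activation of TOR, the kinase that promotes protein synthesis. When food is poor the cascade quietens, FOXO enters the nucleus, and targets such as *Thor* and *InR* itself are transcribed.

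On HA food the core pathway of *D. melanogaster* stayed within 1.5-fold of control at every gene. All 10 members had a mean of at least 1 FPKM, 0 of them were past 1.5-fold in either direction, 5 had a ratio above 0 and 5 below it, and their median log2 ratio was -0.04. Among the 10427 genes of the same table that had a mean of at least 1 FPKM, the median was 0.0028, 1.93% were past 1.5-fold higher and 6.06% past 1.5-fold lower on HA food. A count of 0 in 10 is near this background. On control food the members ranged from the 38.3 percentile of expressed genes (*InR*) to the 98.2 percentile (*Thor*). At a looser limit of 0.32 on the log2 scale, *Ilp3* and *Ilp5* were lower and 0 members were higher, against 16.9% of all genes lower and 7.39% higher.

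**Figure D1:**
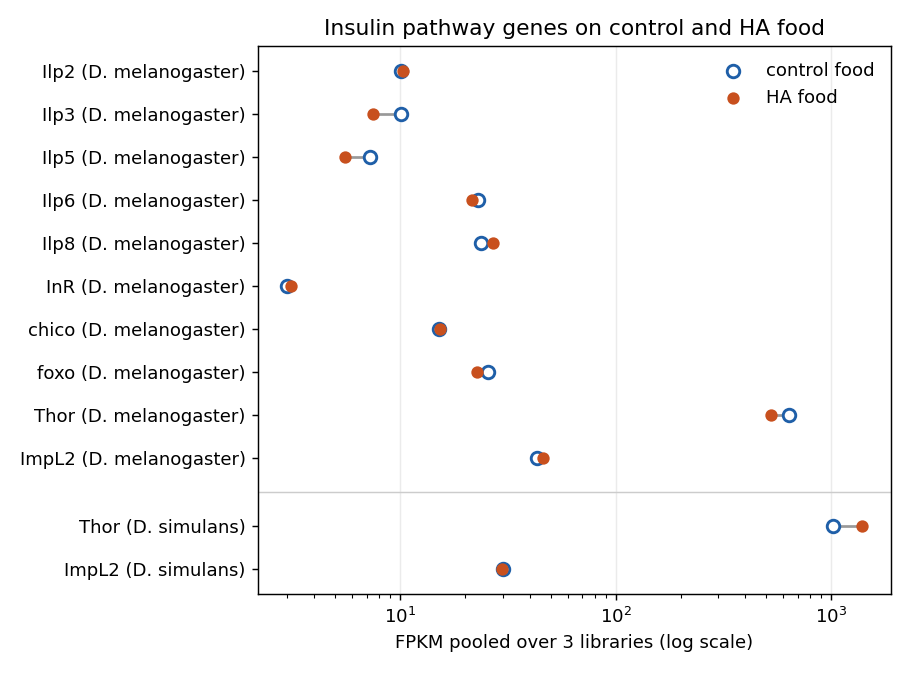
FPKM pooled over 3 libraries (horizontal axis, log scale) of each insulin pathway gene on control food (open circles) and HA food (filled circles), for the 10 genes of *D. melanogaster* and the 2 named in *D. simulans*. The values span 2.99 to 1386 FPKM between genes, whereas the diets lie within 1.5-fold of each other for each gene.

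The ligands made by the insulin-producing cells of the brain are encoded by *Ilp2*, *Ilp3* and *Ilp5*. All lie on chromosome arm 3L of the BDGP6 genome, where *Ilp2* runs from 9799698 to 9800440 on the plus strand and *Ilp3* from 9801298 to 9802120 on the minus strand. *Ilp5* follows from 9823349 to 9823897 on the minus strand. Each has 1 annotated transcript and shares no exonic base with another gene. The authors' table nevertheless assigns *Ilp2* and *Ilp3* a common locus with *Ilp1*, *Ilp4*, *CG32052* and *Zasp67*, and *Ilp5* a locus with *CG43897*.

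*Ilp2*, which is released into the hemolymph and lowers circulating sugar, was at 10.1 FPKM on control food and 10.4 on HA food (log2 ratio 0.04). *Ilp3*, which is also made in muscle of the gut, was at 10.1 FPKM on control food and 7.46 on HA food (log2 ratio -0.44). *Ilp5*, which responds to nutrition and is also made in follicle cells of the ovary, was at 7.29 and 5.54 FPKM (log2 ratio -0.39). Hence *Ilp3* and *Ilp5* were 1.36- and 1.32-fold lower on HA food while *Ilp2* differed by 1.03-fold, and the ratio of *Ilp2* to *Ilp3* was 0.99 on control and 1.39 on HA food. These are the lowest log2 ratios of the 10 members, and 10.9% and 12.9% of the 10427 genes with a mean of at least 1 FPKM had a lower one than *Ilp3* and *Ilp5*. The summed level of the 3 peptides was 27.5 FPKM on control food and 23.4 on HA food.

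In whole flies, fewer cells of a type and less RNA per cell cannot be told apart. Beside these peptides, all 5 neuronal markers (*elav*, *nSyb*, *brp*, *Syt1* and *Rdl*) were detected, their summed level was 49.7 FPKM on control food and 46.6 on HA food, and their log2 ratios lay between -0.17 and -0.04. *Akh*, the adipokinetic hormone of the corpora cardiaca, the endocrine gland beside the brain, was at 21.9 and 17.6 FPKM (log2 ratio -0.31). The part of neuronal RNA, or of the short length of the genes, in the values of *Ilp3* and *Ilp5* was not tested.

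*Ilp6*, an insulin-like growth factor that the fat body secretes and that FOXO induces in starving flies, was at 23.1 FPKM on control food and 21.7 on HA food (log2 ratio -0.09). It has 4 transcripts on the minus strand of the X chromosome (2331493 to 2334658), and its locus in the table also holds *Raf*, *CG14050*, *CG2854*, *CR33218* and *CR34052*. Among 4 fat body markers, *Fbp1* was past 1.5-fold higher and *Lsp2* past 1.5-fold lower, and *Ilp6* lay between them. The summed level of these markers was 308 FPKM on control food and 272 on HA food.

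*Ilp8* encodes a relaxin-like peptide that damaged larval discs release to delay metamorphosis and that mature follicle cells express in adult females. The gene lies on 3L from 17029812 to 17032080 (minus strand, 1 transcript), with 3.34% of its exonic bases shared with *CG7730* or *lncRNA:CR45756*. It was at 23.8 FPKM on control food and 26.9 on HA food (log2 ratio 0.17), the highest ratio of the 10 members. Of 7 genes that mark the follicle cells of late egg chambers, 6 were below control and 1 above it, with a median log2 ratio of -1.38. Past 1.5-fold lower were 4 of them (*Cp16*, *Cp18*, *Cp19* and *Femcoat*), *Cp36* and *Cp38* were lower by less (log2 ratios -0.28 and -0.32), *Cp15* was past 1.5-fold higher, and their summed level was 9054 FPKM on control food and 6581 on HA food. The value of *Ilp8* thus lay apart from those of the chorion genes that were lower, and its relation to them was not tested.

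Of the ligands outside the group, *Ilp7*, a peptide of neurons that innervate the reproductive tract, was at 2.15 FPKM on control food and 1.89 on HA food (log2 ratio -0.18). *Ilp4*, known from the embryo, was at 1.33 and 1.04 FPKM (log2 ratio -0.32). *Ilp1* was listed at 0 in both diets. A listing at 0 can be a failed estimate, since *cup*, a translational repressor of the female germline whose exons all overlap other genes, is also listed at 0 in both diets. Among the ligands of *D. melanogaster* with a mean of at least 1 FPKM, the levels on control food ran from *Ilp8* and *Ilp6* through *Ilp3*, *Ilp2* and *Ilp5* to *Ilp7* and *Ilp4*. *Ilp8* and *Ilp6* are close, as are *Ilp3* and *Ilp2*, and without values per library these neighbours cannot be ordered.

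*ImpL2* encodes a secreted protein of the immunoglobulin superfamily that binds Ilps in the hemolymph and lowers insulin signalling. In *D. melanogaster* it was at 43.4 FPKM on control food and 45.8 on HA food (log2 ratio 0.08), and in *D. simulans* at 30.2 and 29.8 FPKM (log2 ratio -0.02). Both species therefore showed nearly level values. *ImpL2* lies on 3L from 4224006 to 4236147 (minus strand, 4 transcripts). The annotation used here places *CG46460* on the same strand over 61.9% of its exonic bases, a gene that the authors' table does not name. Of the other extracellular modulators, *Sdr*, a secreted decoy of the insulin receptor, was at 1.98 and 2.35 FPKM (log2 ratio 0.24), and *NLaz*, a lipocalin that dampens insulin signalling, was at 96.1 and 93.3 FPKM (log2 ratio -0.04). Of the 8 genes of the list of further ligands and modulators, 5 had a mean of at least 1 FPKM, 0 were past 1.5-fold, and their median log2 ratio was -0.04.

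*InR*, the insulin receptor, had the lowest level of the 10 members, with 2.99 FPKM on control food and 3.13 on HA food (log2 ratio 0.07). It spans 21570248 to 21619321 on the minus strand of 3R, with 4 transcripts, and *CR43653* and *CR44034* share its locus in the table. *chico*, the insulin receptor substrate that docks the kinases, was at 15.2 FPKM on control food and 15.4 on HA food, the smallest change of the 10 (log2 ratio 0.01). It lies on 2L from 10242512 to 10247078 (minus strand, 3 transcripts), and 10.6% of its exonic bases are shared with the antisense gene *CR44995*. Reads of this pair cannot be separated without strand, and the strand setting of the counting is not given in the sources used here. The pooled mRNA values of *InR* and *chico* thus differed little between the diets, with an error that is unknown.

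The kinases, adaptors and regulators below the receptor differed little and mostly in the same direction. All 14 genes of this list had a mean of at least 1 FPKM, 0 were past either limit, 11 were above and 3 below control, and the median log2 ratio was 0.12, against 50.4% of all genes above control and their median of 0.0028. *Pi3K92E*, the catalytic subunit of the lipid kinase, was at 12.6 FPKM on control food and 15.7 on HA food (log2 ratio 0.32). The adaptors *dock* (log2 ratio 0.27) and *drk* (log2 ratio 0.19) followed. *Akt1*, the central kinase, was at 23.7 and 24.3 FPKM. In *D. simulans* only *drk* of this list is named, at 8.81 FPKM on control food and 8.31 on HA food (log2 ratio -0.08).

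In the TOR branch, 12 of 13 genes were found, all 12 with a mean of at least 1 FPKM, 0 past 1.5-fold, 10 above and 2 below control, with a median log2 ratio of 0.11. *Tor*, the kinase, was at 4.60 FPKM on control food and 5.55 on HA food (log2 ratio 0.26), and *gig*, the TSC2 subunit of its inhibitor, at 5.89 and 7.10 FPKM (log2 ratio 0.27). *REPTOR-BP*, the partner of a transcription factor that TOR holds inactive, was at 146 and 113 FPKM (log2 ratio -0.37), the only gene of the list past the looser limit. *S6k*, the kinase of ribosomal protein S6, was at 24.8 and 26.4 FPKM.

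*foxo* encodes the transcription factor that insulin signalling keeps out of the nucleus. It was at 25.5 FPKM on control food and 22.7 on HA food (log2 ratio -0.17), 8.52 times the level of *InR* on control and 7.24 times on HA food. The gene occupies 14056945 to 14087978 on the plus strand of 3R, with 5 transcripts and no other gene at its locus. The level of *foxo* mRNA does not measure the activity of the protein, which is set by phosphorylation.

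The genes listed as FOXO targets went both ways in *D. melanogaster*. The list does not separate genes that FOXO raises from any that it lowers, so this split does not measure FOXO activity. Of 8 genes fixed beside the members, 7 were found, 6 had a mean of at least 1 FPKM, 0 were past 1.5-fold, 3 were above and 3 below control, and their median log2 ratio was -0.02. *Lip4*, a lipase, was at 31.9 FPKM on control food and 21.4 on HA food (log2 ratio -0.57), just short of the limit. *srl*, the fly homolog of the mitochondrial coactivator PGC-1, was at 25.3 and 31.7 FPKM (log2 ratio 0.33), and *daw*, an activin-like ligand also counted among the hormones below, at 15.1 and 12.1 FPKM (log2 ratio -0.32). *InR* and *Thor*, the best known FOXO targets, had log2 ratios of 0.07 and -0.28.

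**Figure D2:**
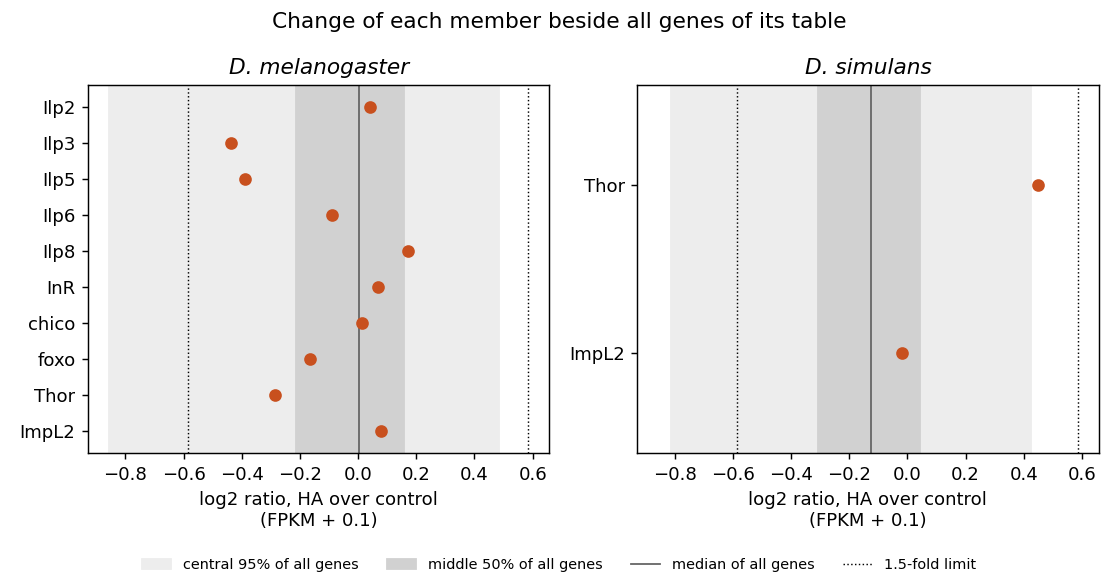
Log2 ratio of HA over control (horizontal axis, 0.1 FPKM added) of each member in *D. melanogaster* and *D. simulans*, over the middle 50% and central 95% of all genes with a mean of at least 1 FPKM in that table. Every member lies inside the dotted 1.5-fold limits, and *Thor* of *D. simulans* (0.45) lies to the right of the central 95%, which ends at 0.42.

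*Thor* encodes 4E-BP, the repressor that binds the cap-binding protein eIF4E and slows translation when insulin and TOR activity are low. It had the highest level of the group by far. In *D. melanogaster* it was at 639 FPKM on control food and 524 on HA food, 1.22-fold lower (log2 ratio -0.28), at the 98.2 and 98.1 percentile of expressed genes. In *D. simulans* it was at 1015 FPKM on control food and 1386 on HA food, 1.36-fold higher (log2 ratio 0.45), at the 98.4 and 98.7 percentile. FPKM levels come from separate runs and annotations, so only the percentiles within a table are set side by side. *Thor* of *D. melanogaster* lies on 2L from 3478434 to 3479612 (plus strand, 2 transcripts) and that of *D. simulans* on 2L of the ASM75419v3 assembly from 3337868 to 3338946, each alone at its locus.

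Neither of the *D. simulans* members was past 1.5-fold, and over all 9352 genes of that table with a mean of at least 1 FPKM, 1.37% were past it higher and 7.38% lower. At the looser limit *Thor* was higher, as were 4.17% of all genes, whereas 23.5% were lower. The table of *D. simulans* is not centred on 0, since the median log2 ratio of all its genes was -0.12. Relative to this median, the log2 ratio of *Thor* was 0.57, still short of 1.5-fold, and that of *ImpL2* was 0.11. A share of 97.7% of these 9352 genes had a lower ratio than *Thor*. Among the 1085 genes with a mean of at least 100 FPKM, 8.57% were past the looser limit in the same direction and 19.1% in the other. This level was chosen after the values were seen. *Yp2*, a yolk protein used here as a marker of the female fat body, was higher by nearly the same ratio, with 16246 FPKM on control food and 22234 on HA food (log2 ratio 0.45). Its locus in *D. simulans* also holds *GD16967* and *GD16968*. In *D. melanogaster* the log2 ratio of *Yp2* was 0.09. Of the 1170 genes of *D. melanogaster* with a mean of at least 100 FPKM, 22.0% were past the looser limit lower and 5.56% higher. Whether *Yp2* and *Thor* of *D. simulans* move together was not tested.

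The partners of *Thor* in translation with a mean of at least 1 FPKM stayed within 1.5-fold of control in *D. melanogaster*, and 1 of them, *eIF4E3*, was past the looser limit. *eIF4E1*, the main cap-binding protein, was at 388 FPKM on control food and 417 on HA food (log2 ratio 0.10), so that *Thor* stood at 1.65 times the FPKM of *eIF4E1* on control and 1.26 times on HA food. *eIF4G1* and *eIF4A*, which form the cap complex with it, had log2 ratios of 0.12 and 0.10. *eIF4E3*, a paralog of *eIF4E1*, was at 21.6 and 15.2 FPKM (log2 ratio -0.50), and *eIF4EHP*, a repressive homolog, at 18.4 and 20.8 FPKM (log2 ratio 0.18). *eIF4E6*, another paralog, had a log2 ratio of 0.16. Of 11 genes of this list, 7 had a mean of at least 1 FPKM and 0 were past 1.5-fold.

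Hormones, other signals and receptors listed as signals to and from the insulin-producing cells were mostly below control on HA food in *D. melanogaster*. Of 17 such genes, 13 had a mean of at least 1 FPKM, and 13 of these 13 were below control, some by very little, with a median log2 ratio of -0.32, whereas 50.4% of all genes past the same filter were above control. The list was chosen with earlier results of these data known, so this count is a description only. Under the filter, *sNPF-R*, a neuropeptide receptor, was above control (log2 ratio 0.17). Past 1.5-fold lower were 4 (all genes 6.06%) and past it higher 0 (all genes 1.93%). *Gbp1*, a cytokine-like peptide that the fat body releases when amino acids are plentiful, was at 117 FPKM on control food and 59.9 on HA food (log2 ratio -0.96). *grnd*, a receptor of the tumor necrosis factor Eiger, was at 6.92 and 3.50 FPKM (log2 ratio -0.96), with 13.1% of its exonic bases shared with *kon* on the opposite strand. *CCHa2*, a peptide of the fat body and gut that stimulates the insulin-producing cells, was at 67.2 and 43.9 FPKM (log2 ratio -0.61). *sun*, which encodes a subunit of the mitochondrial ATP synthase that also circulates as a signal to these cells, was at 2308 and 1514 FPKM (log2 ratio -0.61). None reached 2-fold.

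Other genes of this list were nearer to control. *Gbp2* was at 67.6 FPKM on control food and 47.8 on HA food (log2 ratio -0.50), *AkhR*, the receptor of adipokinetic hormone, at 22.3 and 16.3 FPKM (log2 ratio -0.45), and *egr*, the ligand of *grnd*, at 7.28 and 7.17 FPKM (log2 ratio -0.02). *upd2*, the leptin-like signal of the fat body, and *CCHa2-R*, the receptor of *CCHa2*, were under 1 FPKM in both diets. The list has no named gene in *D. simulans* or *D. sechellia*, so the pattern was seen in 1 species with 1 pooled value per diet. The genes of the lists also differ in length. *Gbp1* and *sun* have 453 and 450 exonic bases, whereas *Tor* and *Pi3K92E*, both above control, have 7987 and 4839. The members with the lowest log2 ratios in *D. melanogaster*, *Ilp3*, *Ilp5* and *Thor*, have 751, 478 and 755. *Ilp2*, which was nearly level, has 670, and *Ilp8*, which was above control, has 867. *AkhR*, which was lower, has 3182. The part of gene length in the ratios was not tested.

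**Figure D3:**
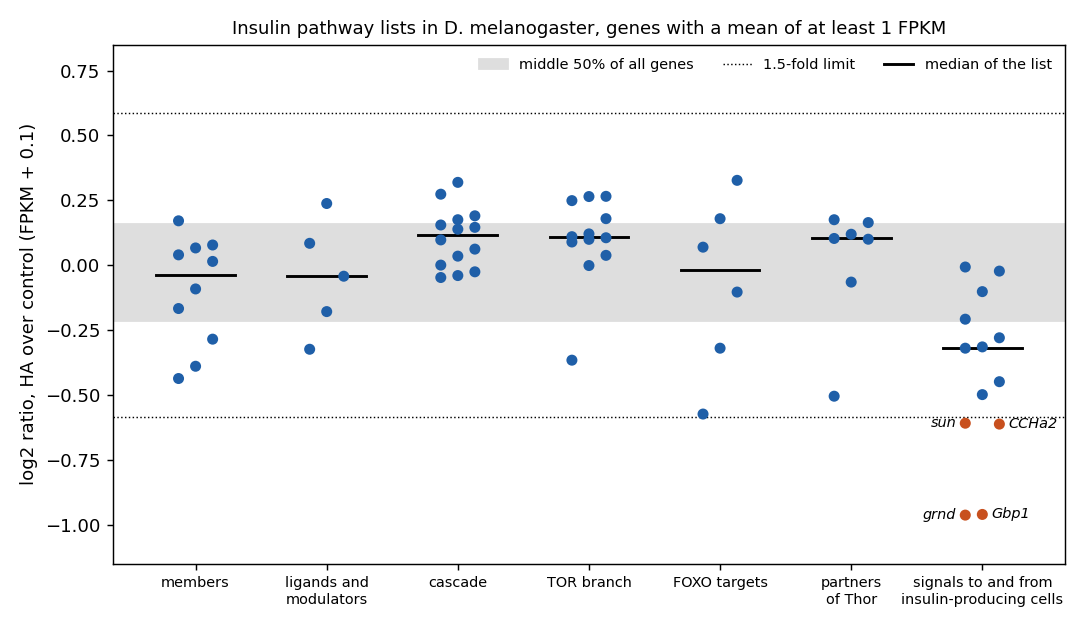
Log2 ratio of HA over control (vertical axis, 0.1 FPKM added) of the genes with a mean of at least 1 FPKM in *D. melanogaster*, by list, with the median of each list as a bar and the middle 50% of all genes shaded. The members have a median of -0.04, the cascade and TOR branch lie mostly above 0 (medians 0.12 and 0.11), the signals to and from the insulin-producing cells have a median of -0.32, and *Gbp1*, *grnd*, *CCHa2* and *sun* lie past the 1.5-fold limit. Whether the ratios follow gene length was not tested.

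The labelled sex was checked in all species. *Yp2* was listed between 6830 and 22234 FPKM in the 6 groups, whereas the male tissue genes found by symbol (of 9, 8 for *D. melanogaster*, 5 for *D. simulans* and 3 for *D. sechellia*) summed to at most 1.75 FPKM in any group, and 4, 4 and 2 of them were listed at 0 in both diets. As with *cup*, some of these listings at 0 can be failed estimates.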

How the data were processed

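Read quality was assessed by the authors in FastQC. Bowtie2 served for alignment against BDGP6, ASM75419v3 or dsec_caf1, and 1 Cuffdiff run per species, with geometric normalization and a bias correction, gave the expression values. Versions are not given in the sources used here. The deposited tables hold FPKM values pooled by the authors over the 3 libraries of a diet, beside the authors' own fold changes, statistics, p and q values, which were not used. From the FPKM values were computed log2 ratios with a pseudocount of 0.1, counts past 1.5-fold and medians, over genes with a mean of both diets of at least 1 FPKM. No test across samples could be made. Members and lists were chosen with earlier results of these data known. From each of 6 other pathway lists, genes past 1.5-fold or the 3 with the largest ratios were named. Other genes were named for their role after their values were seen. All 10 members lay inside their table locus in the Ensembl 115 annotation of BDGP6. Protein, promoter and genome sequences were not used here. Alternatives were other pseudocounts, filters, fold limits and centring. The calculation was tested on simulated data with planted changes well past the 1.5-fold limit. That test does not bear on changes as small as those of the members. Python 3.11.15, pandas 2.3.3, NumPy 2.4.6 and matplotlib 3.10.9 were used.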

Additional observations from a re-analysis of the deposited data

Results flagged for a closer look

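*Thor* stood out because its pooled values went opposite ways in 2 species. Its log2 ratio of HA over control was -0.28 in *D. melanogaster* and 0.45 in *D. simulans*, a difference of 0.73. This difference was not tested, since each species has 1 pooled value per diet. Both tables name 266 genes with a mean of at least 1 FPKM in each. Of these, 8 were past 1.2-fold lower in *D. melanogaster* and past 1.2-fold higher in *D. simulans*. They were *Thor*, *AttA*, *AttC*, *Hsp70Bb*, *Obp56e*, *PGRP-SC1b*, *mir-125* and *sala*. The 5 that went the opposite way were *Dro*, *Fbp2*, *Obp99b*, *mei-218* and *mir-100*. The limit of 1.2-fold was chosen after the values were seen.

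*ImpL2* also had ratios of opposite sign, 0.08 in *D. melanogaster* and -0.02 in *D. simulans*, a difference of -0.10 that was not tested. Relative to the median of all genes of each table, the ratio was above 0 in both species.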

How the results depend on the processing

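No paired analysis was possible because the tables hold 1 pooled value per diet, and for the same reason no replicate could be left out. Without a spread between libraries, a ratio was counted as moved when it changed by over 0.1 on the log2 scale. At a limit of 0.32 on the log2 scale, 2 members were counted in *D. melanogaster* and 1 in *D. simulans*, in place of 0. At a limit of 2-fold, 0 genes of the list of signals to and from the insulin-producing cells were counted in place of 4. The counts at 1.5-fold, 0 members and 4 genes of this list, held under the other pseudocounts (1 and 0.01 FPKM), centring and filters (none, or a mean of at least 5 FPKM). For this list and the other pathway lists these settings were applied after the data were seen. Centring moved the median of the 2 members of *D. simulans* from 0.22 to 0.34, *Thor* there to 0.57 and *ImpL2* to 0.11, by construction of that setting. The other 34 of 36 single-gene ratios moved by at most 0.1. Matching symbols without regard to case or the prefix d added 0 members. The tables hold no value per library, so the error of low values such as those of *InR*, *Ilp4* and *Ilp7* is unknown.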
